A study of Mus musculus with 8 samples.

Results

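Gene expression in newborn mouse skin labelled as lacking both pRb and p107 was compared with that in pRb+/+ skin, on 4 of the 8 arrays of the series. The members were the 2 arrays titled pRb-/-;p107-/- and the 2 titled pRb+/+ with no p107 label, and the comparison covered the 22626 of 22690 probe sets that are not array controls. All animals were newborn and of strain FVB, and whole skin was extracted, so epidermis, hair follicles and dermis were measured together. RNA was pooled from 3 animals of the same genotype for every array. The other 4 arrays of the series, 2 of pRb-/-;p107+/+ and 2 of pRb+/+;p107-/- skin, entered the estimate of the spread and are given beside the results. The p107 genotype of the pRb+/+ animals is not in their labels and was taken as wild-type. The labels do not say which cells carry the deletions, which promoter drove them, or whether the 2 arrays of a genotype are separate pools. P-values therefore measure the spread between duplicate arrays, which may be technical.

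pRb, encoded by Rb1, and p107, encoded by Rbl1, are pocket proteins that bind E2F transcription factors and hold back genes of DNA replication until cyclin-dependent kinases phosphorylate them. In the epidermis, basal keratinocytes divide, then leave the cell cycle and pass through the spinous and granular layers to form the cornified layer. Newborn skin also holds growing hair follicles, in which matrix cells give rise to the hair shaft and the inner root sheath.

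The deposited value is a z-score, which sets each probe set to mean 0 and SD 1 over the 8 arrays, so a difference counts SDs of that probe set and carries neither a level nor a fold change. No z-score over 8 arrays can exceed 2.47 in size. The scaling also bounds the difference between genotypes, and differences near that bound arise only where all other arrays lie near 0. For the genes with the largest differences, a place of the single mutants between the groups therefore follows from the scaling. Whether log or linear values were standardized was not given in the sources used here. The genotypes were fitted as coefficients of a linear model with limma, and a probe set was called at an adjusted p below 0.05. Because the tissue is bulk skin, fewer cells of a type and less RNA per cell cannot be told apart. No marker can be read as absent from z-scores, so the tissue label could not be checked by level.

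In pRb-/-;p107-/- skin 6 of 52 DNA replication genes, 4 of 17 spinous layer genes, 7 of 32 granular layer and cornified envelope genes, 4 of 18 EGF receptor family genes and 8 of 21 glucocorticoid-induced genes rose. On the lower side, 19 of 27 hair shaft genes, 8 of 13 inner root sheath genes and 4 of 11 sebocyte markers fell. In those lists the other measured members did not pass, apart from Lce1i and Elovl3 of the granular layer and cornified envelope list, which fell. Elovl3 is also 1 of the 4 sebocyte markers. The model called 666 of 22626 probe sets (2.94%), of which 318 were higher (1.41%) and 348 were lower (1.54%). With 1 probe set standing for each of 12393 genes, 358 genes passed (2.89%), 160 higher (1.29%) and 198 lower (1.6%). The median difference over all genes was 0.14. The called differences ran from 0.68 to 2.62 in size with a median of 2.29, and their standard errors from 0.04 to 0.32 against a median of 0.81 over all probe sets. The calls rested on the full set of arrays: 0 probe sets passed without either pRb-/-;p107-/- array, 3 without pRb+/+ replicate 1, 2 without pRb+/+ replicate 2, 1 without either pRb+/+;p107-/- array and 242 without either pRb-/-;p107+/+ array. All 666 kept their sign in each of those fits. They had been selected on these same arrays with small standard errors, so the kept sign is no independent check. Limma's moderated test called 0 probe sets, with 5897 at an unadjusted p below 0.05 against 5048 in the unmoderated model.

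**Figure D1:**
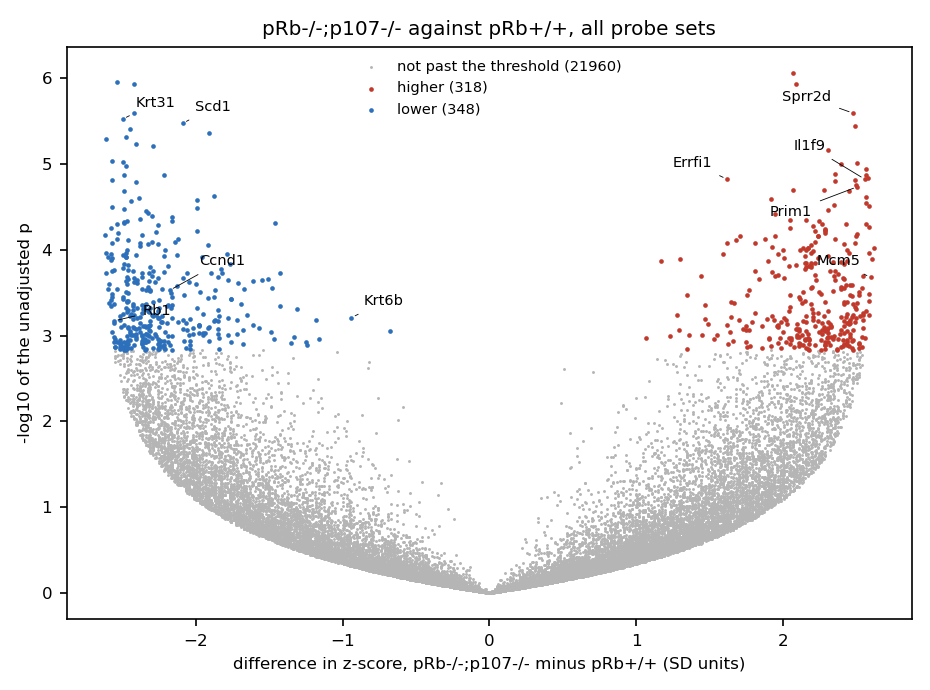
Difference in z-score between the 2 pRb-/-;p107-/- and the 2 pRb+/+ arrays (horizontal axis, SD units) against -log10 of the unadjusted p of the linear model (vertical axis), with 1 point per probe set. The 318 higher and 348 lower probe sets lie above the grey ones, and they include genes with differences as small as that of Krt6b (-0.94).

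Array controls differed along with the comparison, and their part in the results was not tested. The 24 poly-A control probe sets had mean z-scores of 0.30 and 0.19 in the pRb+/+ duplicates against -0.91 and -0.96 in the pRb-/-;p107-/- duplicates. The hybridization controls, added just before hybridization, stood at 0.37 and 2.05 against -0.64 and -0.32, and the Gapdh controls at -1.47 and -1.52 against 0.04 and -0.03. The beta-actin controls went the other way from Gapdh, with a mean difference of -0.76 and no overlap. Across probe sets the 2 pRb-/-;p107-/- arrays correlated with each other at r = 0.276 and the 2 pRb+/+ arrays at r = 0.173. Pairs across these genotypes ran from -0.417 to -0.25. Scaling each probe set over all arrays makes pairs correlate negatively on average, so the sign is no separate result. Also negative were pRb+/+ with pRb+/+;p107-/- arrays (-0.316 to -0.265) and pRb-/-;p107+/+ with pRb-/-;p107-/- arrays (-0.33 to -0.223). Pairs of pRb+/+ with pRb-/-;p107+/+ arrays (-0.173 to 0.076) and across the 2 genotypes labelled p107-/- (-0.043 to 0.015) were less negative. Duplicates correlated at 0.037 for pRb-/-;p107+/+ and 0.35 for pRb+/+;p107-/-. The points of those correlations are probe sets, which are not independent replicates.

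Among the targeted genes, Rb1 fell and Rbl1 did not pass. Rb1 had z-scores of 1.21 and 1.07 in the pRb+/+ duplicates, -0.22 and 0.36 in the pRb-/-;p107+/+ duplicates, 0.02 and 0.40 in the pRb+/+;p107-/- duplicates and -1.56 and -1.28 in the pRb-/-;p107-/- duplicates. Its difference was -2.56 ± 0.27 (SE, limma, adjusted p = 0.0391). At a scaled difference of this size the single mutants can only lie near the middle, so their place is no separate result. The call was lost after quantile normalization (adjusted p = 0.0838), when array medians were subtracted first (adjusted p = 0.0606) and whenever 1 array was left out (adjusted p from 0.0586 to 0.169), with the sign kept. Rb1 in the pRb-/-;p107+/+ duplicates overlapped that in the pRb+/+;p107-/- duplicates, within the narrow range that the scaling leaves them. Rbl1 read 0.08 and 0.21 in the pRb+/+ duplicates, 1.30 and 1.14 in the pRb-/-;p107+/+ duplicates, -1.51 and -1.22 in the pRb+/+;p107-/- duplicates and -0.31 and 0.31 in the pRb-/-;p107-/- duplicates. The duplicates of pRb-/-;p107-/- skin lay on either side of the controls, with a difference of -0.14 ± 0.25 (adjusted p = 0.789). A second Rbl1 probe set read 0.58 and 1.03 in the pRb+/+ duplicates, 1.40 and -0.02 in the pRb-/-;p107+/+ duplicates, -1.53 and -1.12 in the pRb+/+;p107-/- duplicates and -0.13 and -0.20 in the pRb-/-;p107-/- duplicates, a difference of -0.97 ± 0.55 (adjusted p = 0.391). Against the controls Rbl1 therefore did not bear out the p107-/- label of the pRb-/-;p107-/- arrays, although it was low on the pRb+/+;p107-/- arrays. The position of these probes relative to the deletions was not given in the sources used here, so genotypes are named throughout as the arrays are labelled.

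Of the 13 measured pocket protein and E2F genes, Rb1 was the only one past the threshold in the model of all 8 arrays, and 10 had a positive difference. E2f1, an activating E2F, read -1.64 and -1.29 in the pRb+/+ duplicates, 0.27 and 1.15 in the pRb-/-;p107-/- duplicates and -0.28 to 0.85 on the other 4. It was lowest on both control arrays, but the difference of 2.17 ± 0.48 did not pass (adjusted p = 0.108). The repressor gene E2f8 differed by 1.83 ± 0.44 (adjusted p = 0.125) and E2f4, the main partner of p107 and its relative p130, by 1.90 ± 0.46 (adjusted p = 0.127). Differences for the p130 gene Rbl2 (1.50 ± 0.90), the E2F partner Tfdp1 (2.01 ± 0.77), E2f3 (0.46 ± 1.17), E2f5 (1.00 ± 1.12) and E2f6 (-0.59 ± 0.57) did not pass either. Nor did Lin9 (0.32 ± 0.82), Lin37 (1.03 ± 0.97) or Mybl2 (0.61 ± 0.64), whose products act in the DREAM and MuvB complexes that the pocket proteins and B-Myb join.

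Of the 52 measured S phase genes 6 rose in pRb-/-;p107-/- skin, 0 fell and 48 had a positive difference. Their median difference was 1.94 against 0.14 over all genes. Mcm5, a subunit of the replicative helicase, read -1.55 and -1.02 in the pRb+/+ duplicates, 0.08 and 0.14 in the pRb-/-;p107+/+ duplicates, -0.11 and -0.19 in the pRb+/+;p107-/- duplicates and 1.23 and 1.41 in the pRb-/-;p107-/- duplicates. The difference was 2.60 ± 0.20 (limma, adjusted p = 0.0236), a scaled size that leaves the single mutants only the middle. Prim1, the catalytic primase subunit, rose by 2.51 ± 0.11 (adjusted p = 0.0119), from -1.11 and -1.13 to 1.42 and 1.36. Its values in the single mutants ran from -0.58 to 0.32. For Mcm5 and Prim1 alike, a place between the groups follows from the scaling and is no separate result.

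The other S phase genes that rose were Rrm2, a subunit of ribonucleotide reductase (2.55 ± 0.26, adjusted p = 0.0377), the origin licensing factor Cdc6 (2.48 ± 0.25, adjusted p = 0.0377), the maintenance DNA methyltransferase Dnmt1 (2.48 ± 0.30, adjusted p = 0.0455) and the sliding clamp Pcna (2.40 ± 0.24, adjusted p = 0.0379). For Pcna the control arrays stood at -1.22 and -1.12, the pRb-/-;p107+/+ arrays at 0.63 and 0.31 and the pRb-/-;p107-/- arrays at 1.42 and 1.03. Members just outside the threshold included Mcm6 (2.53, adjusted p = 0.0514), the cyclin gene Ccne1 (2.21, adjusted p = 0.0527) and Mcm4 (2.46, adjusted p = 0.0799). The negative members with the smallest p were Orc2 (-0.99 ± 1.10), with its 2 other probe sets opposite, and Timeless (-0.80 ± 1.22), and neither passed. Without any 1 of the pRb+/+, pRb+/+;p107-/- or pRb-/-;p107-/- arrays 0 S phase genes passed, and 4 passed without either pRb-/-;p107+/+ array. Between 20 and 28 of the 52 stayed at an unadjusted p below 0.05 with a positive sign in those fits, and taking the mean of a gene's probe sets gave 10 past the threshold.

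The promoters of the S phase genes that rose are shown because E2F binding sites in such promoters are the textbook route by which pocket proteins act on them. RefSeq windows of 300 bases around the annotated gene start (build GRCm38.p6) were searched on both strands for the E2F letters TTCCCGC, for the variants TTCGCGC or else TTGCCGC, and for TTGGCGC, whose reverse complement can overlap a CCAAT box. Capitals mark a match to the E2F letters on either strand.
Mcm5 (chr8:75109259-75109558, plus strand): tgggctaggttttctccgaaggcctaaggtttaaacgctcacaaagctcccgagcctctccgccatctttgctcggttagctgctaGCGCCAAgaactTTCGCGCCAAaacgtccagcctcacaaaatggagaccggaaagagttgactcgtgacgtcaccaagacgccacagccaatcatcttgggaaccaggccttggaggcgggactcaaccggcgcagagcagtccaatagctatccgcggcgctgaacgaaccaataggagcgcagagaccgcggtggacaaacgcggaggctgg
Cdc6 (chr11:98907901-98908200, plus strand): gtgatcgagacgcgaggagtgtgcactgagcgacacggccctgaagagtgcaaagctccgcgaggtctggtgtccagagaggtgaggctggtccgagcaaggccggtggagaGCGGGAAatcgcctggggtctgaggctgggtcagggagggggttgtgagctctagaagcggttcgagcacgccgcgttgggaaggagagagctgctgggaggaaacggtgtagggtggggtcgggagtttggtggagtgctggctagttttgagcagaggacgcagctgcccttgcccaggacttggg
Prim1 (chr10:128014965-128015264, plus strand): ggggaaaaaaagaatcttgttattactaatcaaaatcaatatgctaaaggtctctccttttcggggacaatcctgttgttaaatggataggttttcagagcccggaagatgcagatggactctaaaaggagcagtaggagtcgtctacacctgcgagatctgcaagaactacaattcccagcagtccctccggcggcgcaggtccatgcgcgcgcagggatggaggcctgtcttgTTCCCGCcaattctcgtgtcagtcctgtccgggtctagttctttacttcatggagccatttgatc
Mcm5 held 3 matches, which began at positions -164, -152 and -149 from the start that its window is built on, and the last 2 overlap. For Mcm5 that start lies downstream of the gene's first annotated base (75109468), so the matches lie nearer to that base. The match of Cdc6 began at -138 and that of Prim1 at -15. Of the 6 S phase genes that rose, 5 held a match, all but Pcna, and so did 25 of the 43 measured S phase genes with a window (58.1%), against 1698 of 9887 genes on the array (17.2%) and 9.57% of all 32851 windows. Over all called genes the share was near that of the array, at 17.3% of the 127 higher and 13.8% of the 152 lower genes with a window. A match is a string of letters, not a measured binding site.

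Mitotic, repair and G1 genes showed few calls, against shares of 1.29% higher and 1.6% lower over all genes. Of 56 measured G2 phase and mitosis genes, 0 rose, 1 fell and 35 had a positive difference (median 0.52). That one was the S and G2 phase cyclin gene Ccna2 (-1.77 ± 0.12, adjusted p = 0.0207), but its second probe set went the opposite way at 1.71 ± 0.62 (adjusted p = 0.226), so its direction is uncertain. Cdc20, an activator of the anaphase-promoting complex, differed by 2.29 ± 0.49 (limma, adjusted p = 0.105), with 1 of 2 other probe sets opposite. The checkpoint kinase gene Bub1 differed by -2.22 ± 0.65 (limma, adjusted p = 0.165). Ccnf, a cyclin-like F-box gene, differed by 1.75 ± 0.49 and did not pass. None of the 29 DNA repair genes passed in the main model, where 3 had an unadjusted p below 0.05, all positive. The members with the smallest p were Ddb2 (2.34 ± 0.47, its other probe set opposite) and the mismatch repair gene Msh6 (1.82 ± 0.44) on the positive side, and Xrcc5 (-2.01 ± 0.81) and the kinase gene Atr (-1.91 ± 0.89) on the negative side.

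The cyclin D1 gene Ccnd1, whose product activates the kinases that phosphorylate pocket proteins, fell. It read 0.87 and 1.01 in the pRb+/+ duplicates, 1.03 and 0.65 in the pRb-/-;p107+/+ duplicates, -0.39 and -0.68 in the pRb+/+;p107-/- duplicates and -1.16 and -1.33 in the pRb-/-;p107-/- duplicates. Both genotypes labelled p107-/- lay below the other 2, and the difference was -2.18 ± 0.19 (limma, adjusted p = 0.0271), with 1 of its 2 other probe sets called as well. Ccnd2, another D-type cyclin gene, differed by -1.95 ± 0.35 and did not pass on the probe set that stands for it (limma, adjusted p = 0.083). Of its 6 other probe sets 3 were called lower and 1 had the opposite sign. The mean of all its probe sets passed (-1.68, limma, adjusted p = 0.0362). The CDK inhibitor genes Cdkn2d (2.45 ± 0.38, adjusted p = 0.0659) and Cdkn1a (1.54 ± 0.34, adjusted p = 0.111) did not pass. Of 20 measured p53 target genes 17 had a positive difference (median 1.37), and Ddit4, an inhibitor of mTOR complex signalling, was the member that rose (2.12 ± 0.14, limma, adjusted p = 0.019). The share of higher genes over all genes was 1.29%. Trp53inp1 fell short (1.53 ± 0.21, adjusted p = 0.0538), and the negative members with the smallest p, Zmat3 (-2.28 ± 0.59) and Ei24 (-0.80 ± 0.53), did not pass. None of 27 apoptosis genes passed in the main model, with 5 at an unadjusted p below 0.05. Among these, the positive Tnf (2.07 ± 0.70) and Bcl2l1 (0.81 ± 0.28, 1 of 3 other probe sets opposite) and the negative Bak1 (-2.12 ± 0.49, its other probe set opposite) and Casp1 (-2.27 ± 0.63) had the smallest p.

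Among 17 measured genes of the spinous layer and cell junctions 4 rose, 0 fell and 14 had a positive difference (median 1.91). Dsc1, a desmosomal cadherin of the upper epidermis, read -1.36 and -1.25 in pRb+/+ skin and 1.31 and 1.32 in pRb-/-;p107-/- skin, with the single mutants between -0.17 and 0.20. Its difference of 2.62 ± 0.17 was the largest positive one among genes (limma, adjusted p = 0.0188). Also higher were the keratinocyte differentiation gene Krtdap (2.40 ± 0.20), the tight junction gene Cldn4 (2.44 ± 0.29) and Ovol1 (2.15 ± 0.15), a transcription factor that promotes exit of keratinocytes from the cell cycle. The basal keratinocyte list had 0 calls among 17 genes, 4 of them positive at an unadjusted p below 0.05, and its keratin genes Krt5 (0.83 ± 0.63) and Krt14 (0.54 ± 0.57) did not pass. Its members with the smallest p were P-cadherin (Cdh3, 2.03 ± 0.47) and Col17a1 (1.96 ± 0.63), a hemidesmosome component, while Dst differed by -0.75 ± 0.49 (2 of 3 other probe sets opposite). The early differentiation keratins Krt1 (1.91, adjusted p = 0.239) and Krt10 (1.25, adjusted p = 0.408) did not pass either, nor did E-cadherin (Cdh1, -1.42 ± 0.82) and envoplakin (Evpl, -1.41 ± 1.02).

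In the granular layer and cornified envelope list 7 of 32 rose, 2 fell and 26 had a positive difference (median 1.64). Sprr2d, a small proline-rich protein cross-linked into the cornified envelope, stood at -0.88 and -0.99 in the pRb+/+ duplicates, -0.15 and -0.09 in the pRb-/-;p107+/+ duplicates, -0.54 and -0.43 in the pRb+/+;p107-/- duplicates and 1.57 and 1.50 in the pRb-/-;p107-/- duplicates. The difference was 2.48 ± 0.06 (limma, adjusted p = 0.00889), a size at which the scaling itself keeps the single mutants below the pRb-/-;p107-/- duplicates. Sprr1b (2.42 ± 0.19), Sprr2h (2.29 ± 0.13), the late envelope gene Lce3c (2.42 ± 0.22), the filaggrin-processing protease Asprv1 (2.50 ± 0.15) and the epidermal lipoxygenase Aloxe3 (2.41 ± 0.30) also rose. Rptn rose by 1.64 ± 0.19, although 1 of 2 further probe sets had the opposite sign.

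Late envelope genes did not all move the same way. Lce1i fell (-2.33 ± 0.14, adjusted p = 0.0181), from 0.94 and 0.61 to -1.59 and -1.53, while Lce3c rose. The fatty acid elongase Elovl3, a member of this list and of the sebocyte list, also fell (-1.95 ± 0.23). By gene name, a grouping made after the values were seen, 3 of 9 Sprr genes rose and all 9 had a positive difference, whereas of 11 Lce genes 1 rose, 3 fell and 9 had a negative difference (median -2.02). Members of these families are close in sequence, and probe sets may share signal among them. Transglutaminase 1, the enzyme that cross-links the envelope, differed by 2.52 ± 0.36 (Tgm1, adjusted p = 0.0565), involucrin by 2.20 ± 0.45 (Ivl, adjusted p = 0.0967) and loricrin by 1.50 ± 0.74 (Lor, adjusted p = 0.336).

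**Figure D2:**
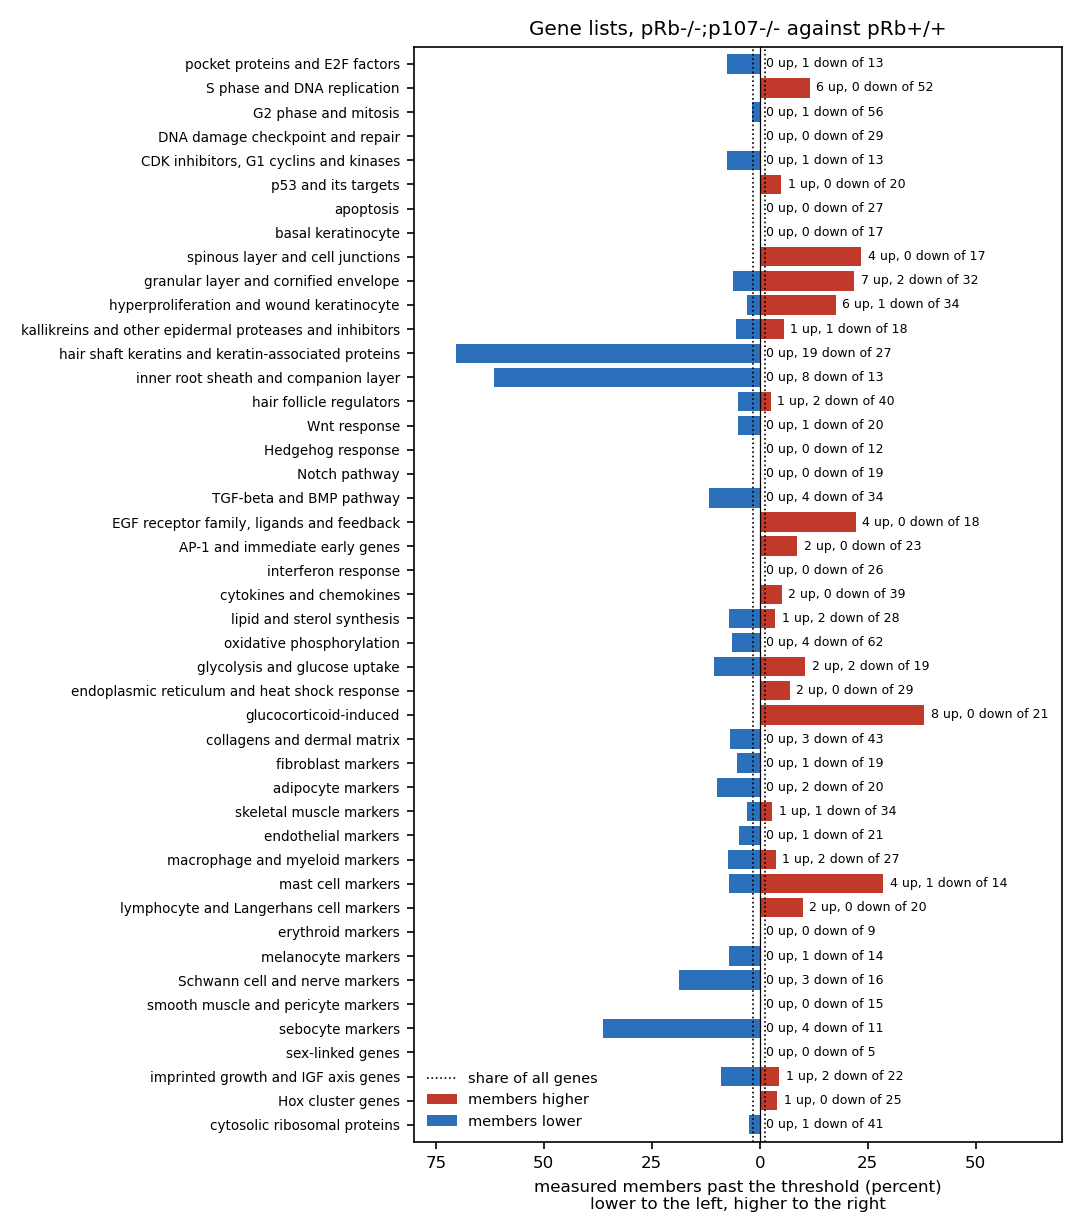
Share of the measured members of each of 45 gene lists that passed the threshold in pRb-/-;p107-/- against pRb+/+ skin, with lower members to the left and higher members to the right (percent). Dotted lines mark the shares over all genes, 1.29% higher and 1.6% lower, and the longest bars are those of the hair shaft (19 of 27 lower), inner root sheath (8 of 13 lower) and glucocorticoid-induced lists (8 of 21 higher).

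Of 34 genes that keratinocytes express in wounds and hyperproliferation 6 rose, 1 fell and 26 had a positive difference (median 0.95). Btc is among the 6 and is counted in the EGF receptor family list as well. Krt16, a stress keratin, read -1.41 and -1.10 in the pRb+/+ duplicates, -0.08 and -0.52 in the pRb-/-;p107+/+ duplicates, 0.10 and 0.46 in the pRb+/+;p107-/- duplicates and 1.43 and 1.11 in the pRb-/-;p107-/- duplicates. Its groups did not overlap, with a difference of 2.53 ± 0.26 (limma, adjusted p = 0.0377). At that size the scaling itself places the single mutants between the controls and pRb-/-;p107-/- skin. For Krt6b, another stress keratin, the control arrays stood at -0.18 and 0.04 and the pRb-/-;p107-/- arrays at -0.97 and -1.05. It fell, with a difference of -0.94 ± 0.10 (limma, adjusted p = 0.0379). It was highest in pRb+/+;p107-/- skin, at 1.52 and 1.50. Krt6a (-0.59 ± 0.95) and Krt17 (-1.91 ± 0.84) did not pass, so these stress keratins did not move one way. The connexin gene Gjb2 differed by -2.26 ± 0.38 (adjusted p = 0.0736) and did not pass.

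Il1f9 and Il1f6 of the interleukin 1 family, which encode the IL-36 cytokines of keratinocytes, rose by 2.56 ± 0.10 (adjusted p = 0.0112) and 2.36 ± 0.14 (adjusted p = 0.0181). Il1f9 stood at -1.19 and -0.95 in pRb+/+ skin, -0.39 to -0.08 in the single mutants, and 1.48 and 1.50 in pRb-/-;p107-/- skin. Of the 39 cytokine and chemokine genes, which do not include those 2, the rise of 2 passed: Tslp (2.22 ± 0.17, adjusted p = 0.0234), a keratinocyte cytokine that acts on dendritic cells, and Ccl20 (2.32 ± 0.25, adjusted p = 0.0399), which attracts Langerhans cell precursors and lymphocytes. The share of higher genes over all genes was 1.29%. The eosinophil chemokine gene Ccl11 differed by -2.45 ± 0.34 (limma, adjusted p = 0.0542) and Cxcl12 by -1.62 ± 0.35 (limma, adjusted p = 0.106). No interferon response gene passed among 26, of which 3 were at an unadjusted p below 0.05. Its members with the smallest p were Irf9 (1.81 ± 0.41), Psmb8 (1.42 ± 0.40), Ifit2 (-1.88 ± 0.77) and Psmb9 (-0.99 ± 1.08).

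Of 18 measured genes of the EGF receptor family, which drives keratinocyte proliferation, its ligands and its feedback regulators, 4 rose, 0 fell and 14 did not pass (median 0.88). The 4 were the ligand genes Btc, Ereg and Epgn and the feedback inhibitor gene Errfi1. Betacellulin (Btc) read -1.11 and -0.87 in the pRb+/+ duplicates, -0.47 to -0.02 in the single mutants, and 1.58 and 1.44 in the pRb-/-;p107-/- duplicates. Only the pRb-/-;p107-/- arrays were above 0, and the difference was 2.50 ± 0.10 (limma, adjusted p = 0.0118), with its other probe set called too. Epiregulin (Ereg) rose by 2.16 ± 0.11 and epigen (Epgn) by 1.97 ± 0.15. Errfi1, which binds and inhibits the receptor, rose by 1.62 ± 0.06 (adjusted p = 0.0112), from -0.22 and -0.25 to 1.38 and 1.38, and its other probe set was called. The receptor gene Egfr itself differed by -0.78 ± 0.42 (adjusted p = 0.368) and turned positive in the mean of its probe sets, and Erbb2 differed by -1.0 ± 1.07. Without either pRb-/-;p107+/+ array 4 passed, and without any other array 0.

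Among 23 AP-1 and immediate early genes 2 rose, Ier3 (2.31 ± 0.08, adjusted p = 0.00983) and the MAP kinase phosphatase Dusp1 (2.19 ± 0.18, adjusted p = 0.0267), and 17 had a positive difference. Over all genes 1.29% were higher. Atf3 (-2.03 ± 0.59) and Egr2 (-0.67 ± 0.34) did not pass. Ier3 lay between -0.73 and -0.40 on the 6 arrays of the other genotypes and at 1.69 and 1.52 in the pRb-/-;p107-/- duplicates. Its step thus lay wholly between pRb-/-;p107-/- skin and the rest.

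Genes that glucocorticoids induce in many tissues gave the largest share of higher members of any list: 8 of 21 rose, 0 fell and 17 had a positive difference (median 1.62). Several respond to other stresses too, and Dusp1, Errfi1, Ddit4, Lcn2 and Pdk4 are in other lists as well. Tsc22d3, the glucocorticoid-induced leucine zipper, read -0.24 and -0.04 in the pRb+/+ duplicates, -0.58 and -0.39 in the pRb-/-;p107+/+ duplicates, -0.90 and -0.94 in the pRb+/+;p107-/- duplicates and 1.52 and 1.56 in the pRb-/-;p107-/- duplicates. It was high in pRb-/-;p107-/- skin and below 0 on the other 6, with a difference of 1.68 ± 0.10 (limma, adjusted p = 0.0181), and both of its other probe sets were called higher. Fkbp5, a co-chaperone of the glucocorticoid receptor, rose by 1.99 ± 0.21 (adjusted p = 0.0394), with its other probe set called.

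The remaining genes of that list that rose were the pyruvate dehydrogenase kinase Pdk4 (1.62 ± 0.17), the iron carrier lipocalin 2 (Lcn2, 1.36 ± 0.16) and the transcription factor Cebpd (1.73 ± 0.19), with a second probe set of opposite sign. Per1 (2.05, adjusted p = 0.0814), Klf9 (1.68, adjusted p = 0.0754) and Sgk1 (1.29, adjusted p = 0.407) did not pass. The metallothionein genes Mt1 (-1.28) and Mt2 (-1.87, adjusted p = 0.085) and the CDK inhibitor gene Cdkn1c (-1.24 ± 0.67) had a negative difference and did not pass. The list median was -0.22 and -0.17 in the pRb+/+ duplicates, -0.39 to -0.37 in the pRb-/-;p107+/+ duplicates, -0.75 and -0.70 in the pRb+/+;p107-/- duplicates, and 1.38 and 1.21 in the pRb-/-;p107-/- duplicates. Quantile normalization of the arrays left 3 of the 8 past the threshold and subtraction of array medians 4, as did leaving out either pRb-/-;p107+/+ array, while 0 passed without any other single array.

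**Figure D3:**
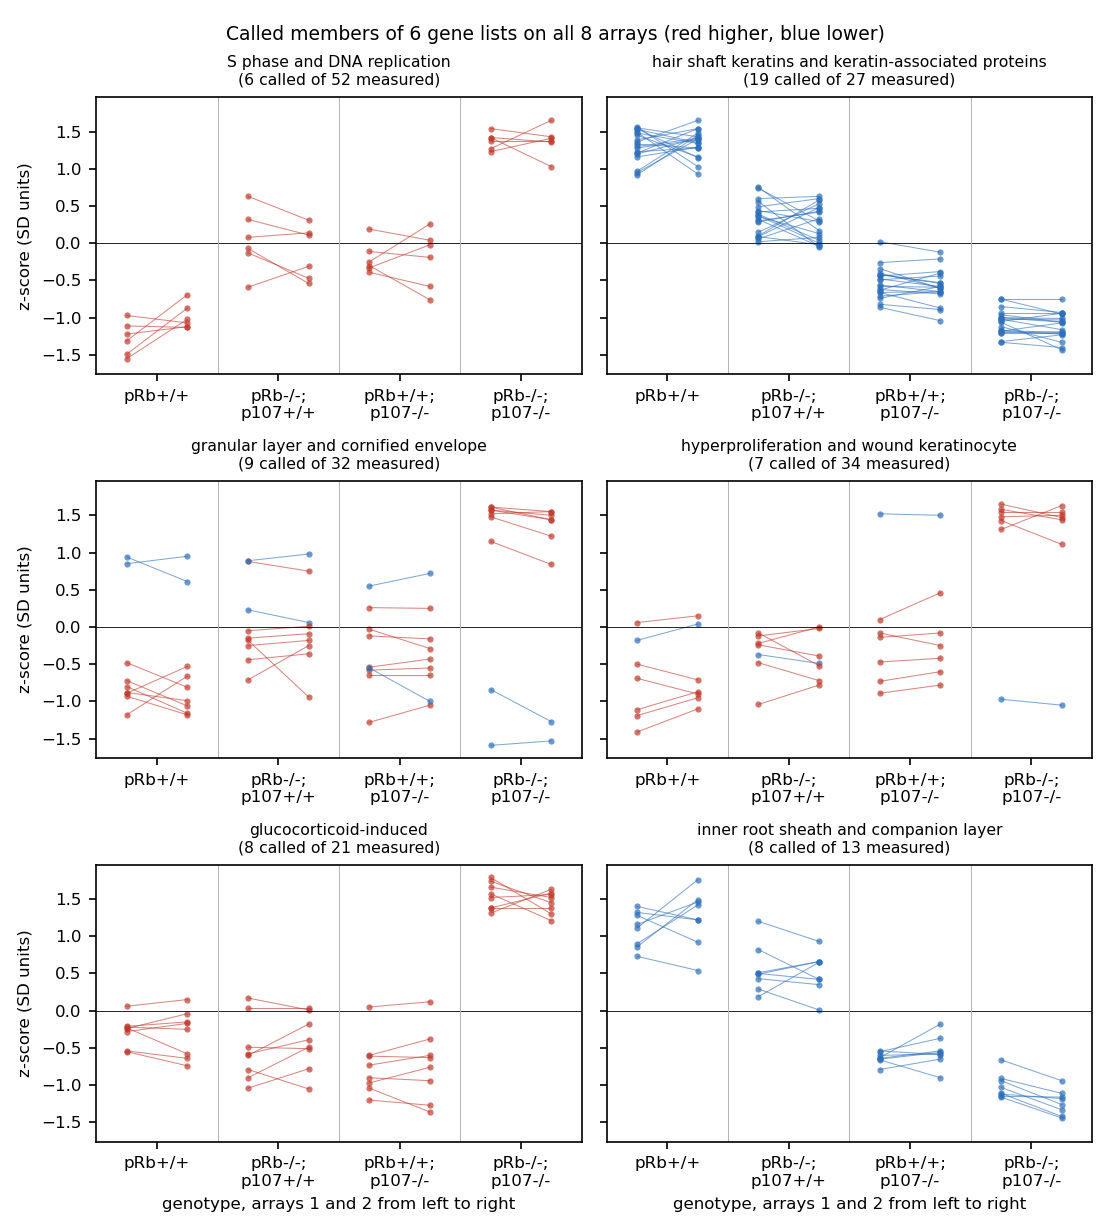
z-scores (vertical axis, SD units) on all 8 arrays for the called members of 6 gene lists, with arrays 1 and 2 of each genotype from left to right and a line joining the duplicates of a gene. Red genes were higher and blue genes lower in pRb-/-;p107-/- skin than in controls: the called hair shaft genes lie at 0.92 or above on the pRb+/+ arrays and at -0.75 or below on the pRb-/-;p107-/- arrays, and the glucocorticoid-induced genes at 1.21 or above on the pRb-/-;p107-/- arrays and at 0.17 or below on the other 6.

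Hair genes gave the largest share of calls. Of 27 measured hair shaft keratins and keratin-associated proteins, which build the cortex and cuticle of the shaft, 19 fell, 0 rose and 25 had a negative difference, with a median of -2.39. Krt31, a cortical keratin, read 1.33 and 1.28 in the pRb+/+ duplicates, 0.44 and 0.29 in the pRb-/-;p107+/+ duplicates, -0.42 and -0.53 in the pRb+/+;p107-/- duplicates and -1.20 and -1.19 in the pRb-/-;p107-/- duplicates. The 4 genotypes did not overlap, and the difference was -2.50 ± 0.07 (limma, adjusted p = 0.00889). At that size the scaling itself places the single mutants between the controls and pRb-/-;p107-/- skin, but sets no order between them. Krtap19-4, a high-glycine-tyrosine keratin-associated protein, stood at 1.55 and 1.43, then 0.09 and -0.02, then -0.48 and -0.58, and at -1.05 and -0.94 over the genotypes in the same order. Its difference was -2.48 ± 0.07 (adjusted p = 0.00893), and the order of the genotypes was that of Krt31.

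The keratins that fell with Krt31 were Krt33a (-2.49 ± 0.12), Krt33b (-2.57 ± 0.23), Krt34 (-2.43 ± 0.18), Krt35 (-2.04 ± 0.21), Krt81 (-2.40 ± 0.25), Krt83 (-2.43 ± 0.23) and Krt86 (-2.38 ± 0.15). The keratin-associated protein genes that fell ran from Krtap15 (-2.21 ± 0.14) to Krtap3-1 (-2.59 ± 0.21) and included Krtap8-1 (-2.46 ± 0.24) and Krtap16-3 (-2.50 ± 0.09). Krtap6-2, Krtap6-3, Krtap14, Krtap19-2, Krtap19-3 and Krtap19-5 fell by 2.26 to 2.48, and Krtap28-13, outside the list, by 2.59 ± 0.24. By gene name, a grouping made after the values were seen, 20 of 26 Krtap genes fell. Members that did not pass included Krt32 (-1.80, adjusted p = 0.0759), Krt82 (-1.83, adjusted p = 0.103) and the positive Krt84 (1.90, adjusted p = 0.196) and Krtap19-1 (0.78, adjusted p = 0.391, its other probe set opposite). Probe sets of these near-identical families may share signal, so the count of separate genes is uncertain. The list median was 1.28 and 1.34 in the pRb+/+ duplicates, 0.30 and 0.29 in the pRb-/-;p107+/+ duplicates, -0.56 and -0.58 in the pRb+/+;p107-/- duplicates and -1.02 and -1.01 in the pRb-/-;p107-/- duplicates. Without either pRb-/-;p107+/+ array 13 of the 27 passed and without any other array 0, although 22 to 24 stayed at an unadjusted p below 0.05 with a negative sign.

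Promoters of hair genes differed in letters from those of the replication genes. Krt31 and Krtap8-1 are printed as examples of a keratin and a keratin-associated protein that fell, with capitals marking TATAAA, the core of a TATA box.
Krt31 (chr11:100050502-100050801, minus strand): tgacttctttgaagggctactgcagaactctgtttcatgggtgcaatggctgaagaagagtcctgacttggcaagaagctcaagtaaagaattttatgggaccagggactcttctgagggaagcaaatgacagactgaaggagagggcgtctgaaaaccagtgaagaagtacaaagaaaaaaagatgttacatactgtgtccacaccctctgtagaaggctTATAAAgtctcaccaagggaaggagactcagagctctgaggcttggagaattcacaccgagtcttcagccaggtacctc
Krtap8-1 (chr16:89487903-89488202, minus strand): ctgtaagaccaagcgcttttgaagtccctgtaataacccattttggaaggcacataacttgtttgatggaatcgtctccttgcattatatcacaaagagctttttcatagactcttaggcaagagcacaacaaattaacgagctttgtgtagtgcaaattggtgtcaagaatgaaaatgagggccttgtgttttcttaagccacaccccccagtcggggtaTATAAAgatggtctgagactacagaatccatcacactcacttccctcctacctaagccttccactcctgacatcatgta
The match began at -29 from the gene start in both. TATAAA, searched on both strands, was present in 9 of the 14 hair shaft genes that fell and have a window (64.3%) and in 13 of the 21 measured ones with a window (61.9%), against 11.9% of genes on the array and 13.6% of all windows. E2F letters were in 0 of those 21 windows. Among called genes as a whole TATAAA was in 26.3% of the lower and 18.1% of the higher genes with a window. Their median GC content was 42.7% for the measured hair shaft windows against 59.3% for the array, so these letters differ along with base composition.

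The inner root sheath, which moulds the shaft, and the companion layer showed the same direction: 8 of 13 fell and 0 rose (median -2.24). Selenbp1 read 1.32 and 1.22 in the pRb+/+ duplicates, 0.50 and 0.42 in the pRb-/-;p107+/+ duplicates, -0.64 and -0.54 in the pRb+/+;p107-/- duplicates and -1.12 and -1.18 in the pRb-/-;p107-/- duplicates. Again the 4 genotypes did not overlap, with a difference of -2.42 ± 0.06 (limma, adjusted p = 0.00889) and the same limit from the scaling as for Krt31. The sheath keratins Krt25 (-2.34 ± 0.22), Krt27 (-2.36 ± 0.23), Krt71 (-1.94 ± 0.22) and Krt72 (-2.33 ± 0.23) fell, as did trichohyalin (Tchh, -2.32 ± 0.20), the peptidylarginine deiminase Padi3 that modifies it (-2.41 ± 0.16) and S100a3 (-2.24 ± 0.28). Gata3, a regulator of sheath fate, differed by 1.87 ± 0.54 and did not pass (adjusted p = 0.163), nor did Dlx3 (0.70 ± 0.57, its other probe set opposite). Without either pRb-/-;p107+/+ array 2 of the 13 passed, and without any other array 0.

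Among genes that regulate the follicle 1 was higher and 2 were lower of 40 (median -0.76), against 1.29% higher and 1.6% lower over all genes. Wnt5a, a ligand of the non-canonical Wnt pathway, stood at 1.51 and 1.35 in pRb+/+ skin, 0.02 and 0.39 in pRb-/-;p107+/+ skin, and at -0.70 or lower on all 4 arrays labelled p107-/-. It fell by 2.30 ± 0.18 (adjusted p = 0.0236), and its other probe set was called. Bambi, a decoy receptor of the TGF-beta family, fell (-1.87 ± 0.16, limma, adjusted p = 0.0271), and Ovol1 was the member that rose. Bambi was lowest in pRb+/+;p107-/- skin, at -1.03 and -1.22, against -0.59 and -0.63 in the pRb-/-;p107-/- duplicates. Shh, the signal of the follicle matrix, differed by 1.50 ± 0.29 (adjusted p = 0.0904) and Hoxc13, a direct regulator of hair keratin genes, by -1.86 ± 0.73 (adjusted p = 0.25), and neither passed. The hairless gene Hr differed by 2.46 ± 0.47 (adjusted p = 0.0884). In the pathway lists, 1 of 20 Wnt response genes fell (Ccnd1), and 0 of 12 Hedgehog and 0 of 19 Notch genes passed, with 4 and 2 at an unadjusted p below 0.05. The Wnt antagonist genes Sfrp2 (-1.04 ± 0.13, adjusted p = 0.0509), Dkk1 (0.88 ± 0.39) and Sfrp1 (1.93 ± 0.86, its 3 other probe sets opposite) did not pass. In the Hedgehog list Gli3 (1.89 ± 0.53), Boc (-1.82 ± 0.32, 1 of 2 other probe sets opposite) and the receptor gene Ptch1 (-2.01 ± 0.65, its other probe set opposite) had small p without passing. In the Notch list the same held for Notch2 (1.02 ± 0.25), Notch3 (1.85 ± 0.76), Hey2 (-1.99 ± 0.63) and Notch1 (-1.29 ± 0.69), with the second probe set of Notch2 and of Notch3 opposite.

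Of 34 TGF-beta and BMP pathway genes 4 fell and 0 rose (median -0.75), against 1.6% lower over all genes. Ltbp3, which holds latent TGF-beta in the matrix, read 1.09 and 1.39 in pRb+/+ skin, between -0.16 and 0.28 in the single mutants, and -1.47 and -1.26 in pRb-/-;p107-/- skin. Its difference was -2.61 ± 0.17 (limma, adjusted p = 0.0192), and its other probe set was called. A scaled difference of this size leaves the single mutants only the middle, so their place is no separate result. The follistatin-like gene Fstl1 (-2.07 ± 0.22) and the BMP transducer Smad1 (-1.68 ± 0.19) fell too, while Smad2 (2.41 ± 0.50) and the co-receptor gene Tgfbr3 (2.26 ± 0.48) did not pass.

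Sebocyte markers, which report on the oil glands attached to follicles, had 4 lower and 0 higher of 11 (median -1.83). These 4 were the stearoyl-CoA desaturase Scd1, the elongase Elovl3, the lipid droplet gene Cidea (-1.83 ± 0.13) and the fatty acid hydroxylase Fa2h (-2.21 ± 0.28). Scd1 and Cidea are adipocyte markers as well, and Elovl3 is also counted in the granular layer and cornified envelope list. Scd1 stood at 0.71 and 0.62 in the controls, 1.04 and 0.94 in the pRb-/-;p107+/+ duplicates, -0.19 and -0.27 in the pRb+/+;p107-/- duplicates and -1.40 and -1.44 in the pRb-/-;p107-/- duplicates, a difference of -2.09 ± 0.06 (limma, adjusted p = 0.00889). It was highest in pRb-/-;p107+/+ skin, on the other side of the control from pRb-/-;p107-/- skin. Prdm1 (2.08 ± 0.44) and Dgat2 (2.13 ± 0.63), the positive sebocyte markers with the smallest p, did not pass. Of the 28 lipid and sterol synthesis genes, Elovl6 fell (-1.92 ± 0.12) and Elovl1, which makes very long chain fatty acids, rose (2.57 ± 0.10, adjusted p = 0.0112), whereas the squalene epoxidase gene Sqle did not pass (1.84 ± 0.54).

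Some genes of ceramide metabolism were picked from among the called genes after their values were seen, from no fixed list, and those that did not pass were not counted. Higher were Sptlc1 (2.46 ± 0.26), a subunit of the first enzyme of sphingolipid synthesis, the desaturases Degs1 (2.54 ± 0.30) and Degs2 (2.45 ± 0.26) and the glucosylceramide synthase Ugcg (2.31 ± 0.27). Lower were the ceramide synthase Cers4 (-2.34 ± 0.12) and the ceramidase Acer1 (-2.29 ± 0.21). Both Cers4 and Acer1 are known from hair follicles and sebaceous glands as well as epidermis.

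Energy genes were lower at the median in oxidative phosphorylation. Of 62 such genes 4 fell, 0 rose and 47 had a negative difference (median -1.39). The 4 were Atp5e (-2.22 ± 0.15, adjusted p = 0.0195), Atp5j2 (-2.25 ± 0.25), the complex I gene Ndufb10 (-2.32 ± 0.26) and Cox8b (-1.47 ± 0.18), a muscle and brown fat subunit of cytochrome c oxidase. The positive members Ndufa4 (1.95 ± 0.29, adjusted p = 0.0619) and Uqcrfs1 (2.01 ± 0.45) did not pass. In the glycolysis list the glucose transporter Slc2a1 rose (2.43 ± 0.20, adjusted p = 0.0254) as did Pdk4, while Ldhb (-2.37 ± 0.18) and the muscle enzyme Pgam2 (-1.33 ± 0.16) fell. Of 34 skeletal muscle markers 1 rose, the fast fibre gene Pvalb (2.37 ± 0.30), and 1 fell, the slow fibre gene Tnni1 (-1.16 ± 0.14), a share near that over all genes (1.29% higher and 1.6% lower). Tnni1 was lowest in pRb-/-;p107+/+ skin, at -1.35 and -1.45, against 0.11 and 0.00 in the pRb-/-;p107-/- duplicates. Myh4 (2.48 ± 0.36, limma, adjusted p = 0.0571) and Ckmt2 (-0.83 ± 0.12, limma, adjusted p = 0.0584) did not pass.

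The collagen, fibroblast and adipocyte lists had called members on the lower side only, against 1.6% of all genes lower. Of 43 collagen and matrix genes 3 fell, 0 rose and 31 had a negative difference (median -1.08): fibronectin (Fn1, -2.22 ± 0.28), Fbln2 (-1.55 ± 0.12) and Col5a1 (-1.43 ± 0.13), although both other probe sets of Col5a1 had the opposite sign. Thbs1 (2.37 ± 0.33, limma, adjusted p = 0.0543) and Timp3 (1.18 ± 0.31) did not pass. The 3 other probe sets of Timp3 had the opposite sign, and 1 of them was called lower, so its direction is uncertain. Among 19 fibroblast markers, dermatopontin fell (Dpt, -2.25 ± 0.29) and 15 were negative (median -1.10). Islr (-2.15 ± 0.58), Pdgfra (1.50 ± 0.61, its other probe set opposite) and Lrig1 (0.55 ± 0.73, its 2 other probe sets opposite) did not pass. The fibroblast list median was 0.12 and 0.16 in the pRb+/+ duplicates and -0.43 and -1.32 in the pRb-/-;p107-/- duplicates. The spinous and granular layer medians were higher in pRb-/-;p107-/- skin than in controls, and the basal keratinocyte median difference was 0.33. In the single mutants the fibroblast median was 0.66 and 0.13 for pRb-/-;p107+/+ and 0.90 and 0.18 for pRb+/+;p107-/- arrays. The part of tissue proportions in these medians was not tested. The 20 adipocyte markers had 2 lower, Scd1 and Cidea, and a median of -1.17. The positive Cebpa (1.93 ± 0.36) and Fabp4 (2.18 ± 0.50, 2 of 3 other probe sets opposite) were not past the threshold.

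Of 14 measured mast cell markers 4 rose, 1 fell and 9 did not pass, and 13 had a positive difference (median 1.53). Tpsab1, a mast cell tryptase, read -1.07 and -0.77 in the pRb+/+ duplicates, -0.74 and -0.92 in the pRb-/-;p107+/+ duplicates, 0.39 and 0.47 in the pRb+/+;p107-/- duplicates and 1.37 and 1.27 in the pRb-/-;p107-/- duplicates. Both genotypes labelled p107-/- were above the other 2, and the difference was 2.24 ± 0.13 (limma, adjusted p = 0.0174). Histidine decarboxylase (Hdc, 2.01 ± 0.14), the carboxypeptidase Cpa3 (1.79 ± 0.19) and the serotonin transporter Slc6a4 (1.62 ± 0.10) rose with it. The connective tissue mast cell protease Mcpt4 fell (-2.16 ± 0.19, adjusted p = 0.0296).

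Markers of other cell types had scattered calls, against 1.29% higher and 1.6% lower over all genes. The 3 lower of 16 Schwann cell and nerve markers and the 2 lower of 27 myeloid markers lay above the lower share. Among 27 myeloid markers the macrophage receptor Csf1r (-2.37 ± 0.14) and Lgals3 (-1.18 ± 0.12) fell and Cd14 rose (2.26 ± 0.27), with a list median of -0.01, and Itgb2 did not pass (2.37 ± 0.50). Lgals3 was lowest in pRb+/+;p107-/- skin, at -1.53 and -1.36, against -0.01 and -0.20 in the pRb-/-;p107-/- duplicates. Cd74, the invariant chain of antigen presentation (1.23 ± 0.14), and Epcam, which marks Langerhans cells and follicle cells (2.03 ± 0.22), rose among 20 lymphocyte and Langerhans cell markers, while H2-Eb1 (-1.34 ± 0.37) and Thy1 (-1.57 ± 0.71) did not pass. Cd74 was highest in pRb+/+;p107-/- skin, at 1.46 and 1.29, against 0.44 and 0.23 in the pRb-/-;p107-/- duplicates. Dct, an enzyme of melanin synthesis, fell (-2.46 ± 0.18, adjusted p = 0.0209) among 14 melanocyte markers, of which Pmel (-2.29 ± 0.35), Kit (2.00 ± 0.72) and Rab27a (1.38 ± 0.56, 1 of 2 other probe sets called) did not pass. Pmp22 (-2.47 ± 0.30), Mal (-2.24 ± 0.27) and Gap43 (-2.19 ± 0.27) fell among 16 Schwann cell and nerve markers, and the receptor Tek (-2.30 ± 0.23) fell among 21 endothelial markers. Erbb3 (1.53 ± 0.44) and Ngfr (1.12 ± 0.94, 1 of 2 other probe sets opposite) in the former list and Cldn5 (2.36 ± 0.36), Sox17 (1.99 ± 0.42) and Ramp2 (-1.90 ± 0.35) in the latter did not pass. None of the 15 smooth muscle, 9 erythroid and 5 sex-linked genes passed, with 4, 3 and 1 at an unadjusted p below 0.05. The smooth muscle and pericyte members with the smallest p were Lmod1 (2.23 ± 0.57), Notch3, Rgs5 (-2.23 ± 0.31, 2 of 3 other probe sets opposite) and Myl9 (-2.05 ± 0.41). The erythroid ones were Alas2 (1.69 ± 0.26), Hba-a1 (1.93 ± 0.42), Tfrc (-2.19 ± 0.62, its 2 other probe sets opposite) and Slc4a1 (-1.64 ± 0.85, 1 of 2 other probe sets opposite).

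Xist, expressed from the inactive X chromosome of females, differed by -1.76 ± 0.26 on the probe set that stands for it (adjusted p = 0.0611), from 0.55 and -0.13 in the pRb+/+ duplicates to -1.63 and -1.48 in the pRb-/-;p107-/- duplicates. Another of its 3 probe sets was called lower (-1.25 ± 0.15, adjusted p = 0.0461), and the third differed by -0.42 ± 0.45. The Y-linked genes Eif2s3y (-0.78 ± 0.36, adjusted p = 0.312) and Uty (0.21 ± 0.48) did not pass. No label states the sex of the pups, and the part of sex in the results was not tested.

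In the remaining lists 1 to 3 members passed, against 1.29% higher and 1.6% lower over all genes. A single call in such a list is no result about the list. The secreted inhibitor Igfbp2 fell (-2.58 ± 0.23, limma, adjusted p = 0.0309) and its relative Igfbp3 rose (1.77 ± 0.15, adjusted p = 0.0271), so 2 IGF binding proteins moved in opposite directions. Imprinted Peg3 fell (-1.35 ± 0.17, 1 of 2 other probe sets opposite), while Grb10 did not pass (1.60 ± 0.22, adjusted p = 0.0554, 1 of 2 other probe sets opposite). Hoxc6 rose (1.70 ± 0.18) among 25 Hox genes, 20 of them positive. It was lowest on the control arrays, at -1.64 and -1.47, and higher in both single mutants than in pRb-/-;p107-/- skin. Hoxb2 (2.03 ± 0.34) and Hoxa2 (-1.74 ± 0.94) did not pass. Of 29 endoplasmic reticulum and heat shock genes Herpud1 (1.92 ± 0.24) and Hspa1b (2.02 ± 0.21) rose, while the list median was -0.66 and the chaperone genes Hsp90b1 (-2.35 ± 0.48, its other probe set opposite) and Hspa5 (-2.04 ± 0.64) did not pass. Rpl37a fell (-2.26 ± 0.14) among 41 ribosomal protein genes, and Rpl14 (-2.01 ± 0.27, adjusted p = 0.0531), Rps2 (1.20 ± 0.38) and Rpl13a (1.51 ± 0.52, its 3 other probe sets opposite) did not pass. Klk6 rose (1.75 ± 0.21) and the protease inhibitor Spint1 fell (-2.32 ± 0.17) among 18 epidermal proteases and inhibitors, with Klk8 (2.21 ± 0.37, adjusted p = 0.0752) and Cst6 (-2.12 ± 0.29, adjusted p = 0.055) short of the threshold.

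Outside the lists, the genes with the largest differences whose probe sets all had the same sign included barrier and signalling genes. Aqp3, the water and glycerol channel of basal keratinocytes, rose by 2.59 ± 0.24 (limma, adjusted p = 0.0315), with 1 of its 2 other probe sets called. It stood at -1.32 and -1.45 in pRb+/+ skin and 1.16 and 1.25 in pRb-/-;p107-/- skin, with single mutants between -0.24 and 0.41. At a scaled difference of this size the single mutants can only lie near the middle, so their place is no separate result. Cd109, a membrane co-receptor that dampens TGF-beta signalling, rose by 2.59 ± 0.26, and the decoy death receptor Tnfrsf23 by 2.59 ± 0.12 (adjusted p = 0.0145). Also among the 15 with the largest positive differences were the monooxygenase Fmo2 (2.57 ± 0.25), the RNA export factor Nxt1 (2.57 ± 0.14), Nipal2 (2.57 ± 0.10), Ly6m (2.55 ± 0.20) and the phospholipase Pld2 (2.52 ± 0.31). The most negative, besides hair genes, Ltbp3, Igfbp2 and Rb1, were the vesicle fusion gene Sec22b (-2.61 ± 0.20), the aldehyde oxidase Aox4 (-2.60 ± 0.18), the kinesin-associated gene Kifap3 (-2.60 ± 0.22), Iah1 (-2.58 ± 0.18), the succinate dehydrogenase assembly factor Sdhaf4 (-2.57 ± 0.16), the receptor phosphatase Ptprd (-2.57 ± 0.10), the ubiquitin ligase Trim2 (-2.56 ± 0.24), Hacd4 (-2.56 ± 0.19) and Gm11567 (-2.56 ± 0.31).

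The single mutants were then set beside the called genes as a description. The calls used the spread of those arrays, and the mean and SD over the 8 arrays are fixed at 0 and 1. Over the 160 higher genes the median z-score was -0.93 for pRb+/+, -0.30 for pRb-/-;p107+/+, -0.14 for pRb+/+;p107-/- and 1.42 for pRb-/-;p107-/-. Both pRb-/-;p107-/- arrays lay above all 6 others for 126 of the 160. The pRb-/-;p107+/+ mean was nearer to that of pRb-/-;p107-/- skin than to the control for 36 of them and the pRb+/+;p107-/- mean for 66. Over the 198 lower genes the medians were 1.16, 0.44, -0.38 and -1.22 in the same order. There the pRb-/-;p107+/+ mean was nearer to pRb-/-;p107-/- skin for 39 and the pRb+/+;p107-/- mean for 135, and both pRb-/-;p107-/- arrays lay below all 6 others for 165. Whether loss of both differs from the sum of the single losses was not tested by these counts.

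**Figure D4:**
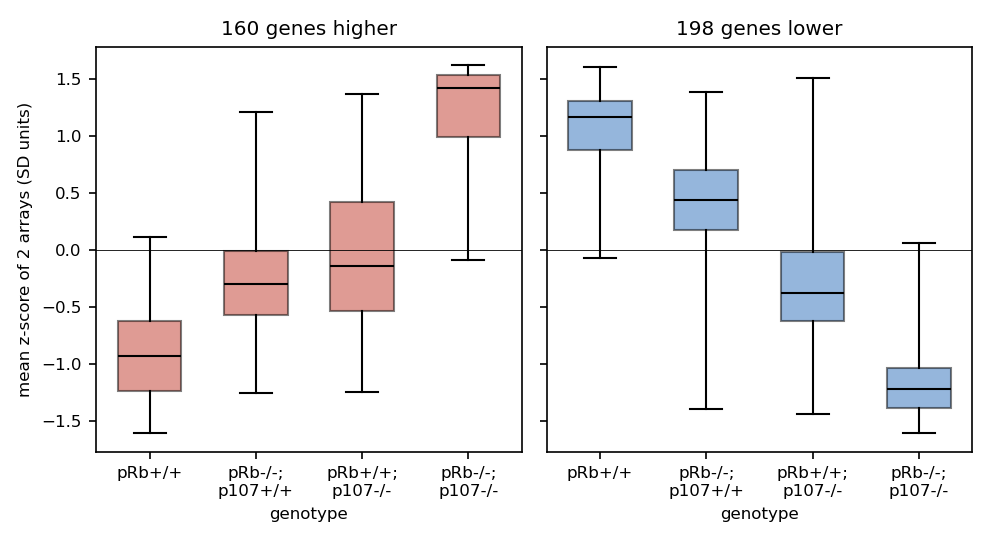
Mean z-score of the 2 arrays of each genotype (vertical axis, SD units) for the 160 genes higher and the 198 genes lower in pRb-/-;p107-/- skin than in controls. Boxes span the quartiles, the line is the median and whiskers reach the lowest and highest gene: medians of the higher genes run from -0.93 to 1.42 and those of the lower genes from 1.16 to -1.22, with the single mutants between.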

How the data were processed

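Whole skin of newborn FVB mice in 4 genotypes was hybridized to Affymetrix arrays, 2 per genotype, each with pooled RNA from 3 animals, extracted from 30 mg of skin per the labels' protocols. Per the submitters' processing notes RMA was used, with no version named. The deposited values are scores: from the values, every probe set was standardized over the 8 arrays (mean 0, SD 1), a step that no label records. Signal over background cannot be read from them.

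The genotypes were fitted as coefficients of a linear model over all 8 arrays with limma 3.58.1 in R 4.3.3, leaving 4 residual degrees of freedom. The contrast pRb-/-;p107-/- minus pRb+/+ was tested without variance moderation, because standardizing ties each probe set's variance to its differences, and adjusted by Benjamini-Hochberg over 22626 probe sets, with a threshold of 0.05. Of those probe sets 20380 had 1 gene symbol in the platform annotation, 691 several and 1555 none, and those with several named no gene. In all, 20351 single-symbol probe sets had a gene in a RefSeq mouse table. A gene was represented by 1 probe set, names ending in _at before _a_at, _s_at and _x_at, then the lowest number.

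The members, the 45 gene lists and the tests were chosen with earlier results of these data known. Named genes were the pocket protein and E2F list, called members of lists, the 2 members of each list with the smallest p in each direction, and the 15 genes with the most positive and the 15 with the most negative differences among genes whose probe sets share a sign. A few others were named to describe a list or after their values were seen. Replicate numbers come from the sample titles and did not pair the arrays: deviations of same-numbered arrays of pRb-/-;p107-/- and pRb+/+ skin correlated at -0.131. Alternatives covered moderation, the arrays fitted, normalization, centring, replicate blocks, the probe set used and leaving out each array.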

Additional observations from a re-analysis of the deposited data

Results flagged for a closer look

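3 sets of control probe sets for which the comparison makes no use differed between the arrays compared, with no overlap of the 2 pRb-/-;p107-/- and the 2 pRb+/+ arrays and the former higher. For the Gapdh controls the mean difference was 1.50, for the transferrin receptor controls 1.62 (from -1.45 and -1.04 to 0.27 and 0.49) and for the TrpnX controls 0.45 (from -0.56 and -0.39 to -0.21 and 0.17). Lower in pRb-/-;p107-/- skin, also with no overlap, were the poly-A (-1.18), hybridization (-1.69) and beta-actin controls (-0.76). The first 3 were differences above the level of the control samples in probe sets left out of the comparison, and none of the 6 was tested. The transferrin receptor gene Tfrc was also measured by compared probe sets, at -2.19 on the one that stands for it and 0.28 in their mean.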

How the results depend on the processing

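Without moderation and with all 8 arrays 666 probe sets passed, 318 higher and 348 lower. Limma's moderated test called 0 in either direction, and a fit of only the 4 arrays compared, with 2 residual degrees of freedom, called 1 (1 higher, 0 lower). Quantile normalization called 370 (175 higher, 195 lower), 315 of them among the 666, and subtraction of array medians 606 (300 higher, 306 lower), 463 of them among the 666. A replicate block called 37 (15 higher, 22 lower), and a block with the numbers crossed, added after the data were seen, called 50 (23 higher, 27 lower). Leaving out 1 array gave 0 to 242 calls (0 to 119 higher, 0 to 123 lower), the highest without either pRb-/-;p107+/+ array and 0 without either pRb-/-;p107-/- array. In every one of these fits the 666 kept their sign. Since they were selected on the same arrays, that is no independent check of their direction. Of 246 named genes 133 passed with all 8 arrays; all 133 lost the threshold in the moderated and in the 4-array fit, 54 with quantile normalization, 28 with array medians subtracted, 119 with the block and 23 with the mean of a gene's probe sets. Of the other named genes Cst6 gained it with quantile normalization, Cst6, Alas2, Grb10 and Klk8 with array medians subtracted, and Ccnd2, Sfrp2 and Thbs1 with the mean of probe sets. Single genes that did not pass changed sign: over the left-out arrays E2f3 ran from -0.91 (without pRb+/+ replicate 1) to 1.82, Mybl2 from -0.11 (without pRb+/+ replicate 1) to 1.33, Lin9 from -0.11 (without pRb-/-;p107-/- replicate 1) to 0.75, Rbl1 from -0.45 to 0.17 (without pRb-/-;p107-/- replicate 1), E2f6 from -1.26 to 0.07 (without pRb-/-;p107-/- replicate 2), Orc2 from -2.32 to 0.34 (without pRb+/+ replicate 2), Timeless from -2.35 to 0.76 and Psmb9 from -2.31 to 0.34 (both without pRb-/-;p107-/- replicate 2), and Uty from -0.31 (without pRb+/+ replicate 2; -0.21 without pRb-/-;p107-/- replicate 1) to 0.74. With the mean of a gene's probe sets the sign turned for Orc2 (0.94), Egfr (0.63), Tfrc (0.28), Krtap19-1 (-0.78), Dlx3 (-0.84), Sfrp1 (-0.44), Notch2 (-0.21), Timp3 (-0.52), Lrig1 (-0.56) and Rpl13a (-0.48). The cause of these changes was not tested, apart from the fewer arrays and residual degrees of freedom of the fits that leave arrays out. The number of arrays limits the precision, and no filter on dim probe sets or background correction could be run, since the scores carry no signal.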
